A study of Homo sapiens with 2 samples.

Results

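The transcripts of 10 genes are described here, 6 of the S100 family (S100A4, S100A6, S100A10, S100A11, S100A13 and S100A16) and 4 annexins (ANXA1, ANXA2, ANXA5 and ANXA6). They were chosen by name, with earlier results of these data known, and all 10 were found among the 38606 genes of the count matrix. Their UMIs (unique molecular identifiers, each standing for 1 captured transcript) were summed by library and by the authors' cluster. The cells were human mesenchymal stem cells from adipose tissue, bought from a commercial source. Both groups were grown on plates to 90% confluency and starved overnight. One group then received TGFB1 at 10 ng/mL for 24 h and the other received no treatment. The cells of both groups were released with trypsin, frozen and sent away for 10x single-cell sequencing. Nothing in the labels says from how many donors or cultures the cells came. Each group is 1 library, so the treatment cannot be told apart from any other difference between the 2 libraries, no test of it was possible, and every interval below is a 95% interval that covers counting error only.

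S100 proteins are small calcium-binding proteins of the EF-hand type that mostly act as dimers: on binding calcium they expose a surface that grips a target protein. Annexins bind negatively charged membrane phospholipids when calcium is present and take part in membrane repair, vesicle traffic and anchoring of actin to membranes. The families meet in several complexes, S100A10 with ANXA2, S100A11 with ANXA1 and S100A6 with several annexins. S100A10 is unusual in binding ANXA2 without needing calcium, and without ANXA2 the S100A10 protein is unstable. In stromal cells S100A4 is best known as a fibroblast and motility marker, and TGFB1 is the classical inducer of a contractile, matrix-producing state.

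Untreated cells numbered 8101 and gave 169011524 UMIs in all (median per cell 19249), and TGFB1 cells numbered 12555 and gave 208991941 (median per cell 15134). All 10 mesenchymal stromal markers (such as THY1, PDGFRB and COL1A1) stood at 5 CPM or more (CPM is a gene's UMIs scaled to a library total of 1e+06), with summed levels of 20272 CPM in untreated and 22708 CPM in TGFB1 cells. The sums are mostly collagen transcripts, and DCN (2010 to 771 CPM), LUM (599 to 294 CPM), PDGFRA (182 to 82.4 CPM) and NT5E (282 to 154 CPM) of the same list were lower with TGFB1. Leukocyte markers reached 26.2 and 18.5 CPM in sum, with 1 of 8 at 5 CPM or more and CD3E at 0. Epithelial markers summed to 38.0 and 83.4 CPM, with 1 of 6 at that level, KRT18 (35.1 to 80.2 CPM). Mural markers summed to 108.7 and 64.5 CPM, with 2 of 6 at that level, KCNJ8 and ABCC9. Endothelial markers summed to 15.4 and 18.6 CPM, with 2 of 7 at that level, EGFL7 and ERG (1.49 to 10.0 CPM). Melanocyte or Schwann cell markers, a list that includes the family gene S100B, had 0 of 6 at that level, and adipocyte markers 0 of 4, with S100B and ADIPOQ at 0 UMIs. The 4 cycling markers summed to 127.7 CPM in untreated and 37.9 CPM in TGFB1 cells. The libraries shared 18 barcode sequences, 0.222% of the untreated barcodes.

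The 6 S100 genes lie together on the long arm of chromosome 1 and the annexins on 4 other chromosomes (GENCODE release 29 positions, GRCh38). S100A10 is at chr1:151982915-151994390 and S100A11 at chr1:152032506-152047907, a gap of 38115 bases. S100A6 (chr1:153534599-153536244), S100A4 (chr1:153543613-153550136), S100A16 (chr1:153606886-153613145) and S100A13 (chr1:153618787-153631360) form a second, tighter group. All 6 are on the minus strand. ANXA2 is at chr15:60347134-60402883, ANXA5 at chr4:121667955-121697113 and ANXA6 at chr5:151100712-151157882, each on the minus strand, and ANXA1 is at chr9:73151757-73170393 on the plus strand.

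Short stretches upstream of RefSeq start sites (GRCh38.p14, read 5′ to 3′ along the gene's own strand) are shown for the genes whose levels are contrasted below: the neighbours S100A10 and S100A11, S100A4, the S100A10 partner ANXA2, and ANXA6. Capitals mark the motif match. It is the SMAD letters CAGAC, or GTCTG where they lie on the other strand, in all but ANXA2, where it is the AP-1 letters TGANTCA. SMAD proteins are the transcription factors that carry the TGFB1 signal, and AP-1 often binds with them. ANXA6 has 2 RefSeq starts, and its match lies before only 1 of them. The other genes printed have 1 start each.
S100A10, chr1:151994015-151994043, minus strand, 172 to 168 bases before the start: caagaacgctctGTCTGgggcgggcgagg
S100A11, chr1:152037034-152037062, minus strand, 46 to 42 bases before the start: ggcgcggaagctGTCTGagtaaggcttgg
S100A4, chr1:153545810-153545838, minus strand, 20 to 16 bases before the start: gtataaataggtCAGACctctgggccgtc
ANXA6, chr5:151141887-151141915, minus strand, 219 to 215 bases before the start: tccggccgtgagGTCTGaagtaaggccaa
ANXA2, chr15:60398096-60398124, minus strand, 127 to 121 bases before the start: gcgggccggggTGAGTCAcccctgacttg

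Over the 250 bases before each of their 14 RefSeq starts, 6 of the 10 genes held CAGAC on either strand, against 38.0% of all 35116 promoters of that length. The GC box letters GGGCGG were in 8 of 10 genes, against 42.6% of promoters, and in S100A10 they directly follow the CAGAC match printed above. TGANTCA was in ANXA2 only among the 10 (6.57% of promoters), and the TEAD letters GGAATG in S100A16 only (11.9% of promoters). A gene with several starts has more chances of a match than a single promoter, and a match is a run of letters and not a shown binding site.

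S100A10 transcripts were 3.09-fold lower in the TGFB1 library (interval 3.07 to 3.11), S100A4 transcripts were 1.87-fold lower, and ANXA6 transcripts were 1.72-fold higher (interval 1.69 to 1.76). The other 7 genes lay within 1.5-fold, among them ANXA2, the partner of S100A10. A gene was called higher or lower at a fold of 1.5 or more, and was counted as measured at 5 CPM or more in either library. Of all 10928 measured genes 14.2% were lower and 8.45% higher by that rule, so the members' counts, 2 lower and 1 higher of 10, are near the background and say nothing particular of the list. The median log2 ratio (TGFB1 over untreated) was -0.18 over the 10 genes and -0.10 over all measured genes. It was -0.40 over the 6 S100 genes and 0.03 over the 4 annexins. Summed over genes, the 6 S100 transcripts came to 13433 CPM in untreated and 9267 CPM in TGFB1 cells, while the 4 annexins stood at 4440 and 4454 CPM.

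**Figure D1:**
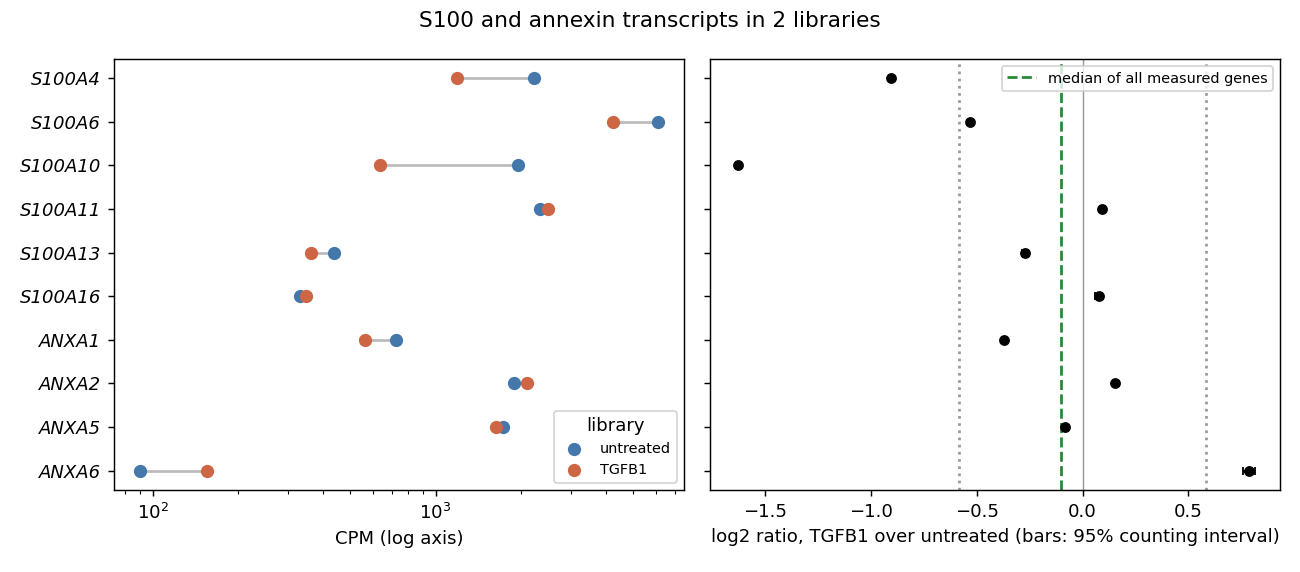
Left, the level of each gene in CPM (log axis) in the untreated (blue) and TGFB1 (orange) library. Right, the log2 ratio of TGFB1 over untreated with its 95% counting interval, where dotted lines mark 1.5-fold and the dashed line the median of all 10928 measured genes (-0.10). S100A10 stands farthest to the left at -1.63 and ANXA6 farthest to the right at 0.79.

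S100A10, also called p11, carries ANXA2 and several ion channels to the cell surface and, on the surface, binds plasminogen. It stood at 1964 CPM in untreated cells and 635 CPM in TGFB1 cells, or 41.0 and 10.6 UMIs per cell. Its log2 ratio of -1.63 was the 237th lowest of the 10928 measured genes. S100A4, which binds non-muscle myosin heavy chain and promotes motility, stood at 2236 CPM against 1193 CPM, or 46.6 against 19.9 UMIs per cell. S100A4 was the 781st lowest ratio, with a log2 ratio of -0.91.

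S100A6, or calcyclin, binds the ubiquitin ligase adaptor CACYBP and several annexins. Its level was 6125 CPM in untreated and 4233 CPM in TGFB1 cells, 1.45-fold lower and just inside the 1.5-fold limit. S100A13, which takes part in the release of FGF1 and interleukin 1 alpha from cells, stood at 438 and 363 CPM, a ratio of 0.828 (interval 0.819 to 0.836). S100A11, the partner of ANXA1, stood at 2339 and 2496 CPM (ratio 1.07), and S100A16 at 331 and 349 CPM (ratio 1.05). The S100 genes therefore ranged from a log2 ratio of -1.63 to 0.09 within 1 family and 1 stretch of chromosome.

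ANXA1, known as a mediator of glucocorticoid action that ends inflammation through formyl peptide receptors, stood at 726 CPM in untreated and 561 CPM in TGFB1 cells, a ratio of 0.773. ANXA2, which links actin to membranes and with S100A10 forms a surface receptor for plasminogen and its activator, stood at 1892 and 2105 CPM, a ratio of 1.11. ANXA5, the phosphatidylserine-binding annexin used as an apoptosis stain, stood at 1732 and 1633 CPM (ratio 0.943). Its log2 ratio of -0.09 changed sign with the scaling of the libraries, so no direction is given for it. ANXA6, the annexin with a duplicated core that has been tied to cholesterol handling and matrix vesicles, rose from 90.0 to 155 CPM, a log2 ratio of 0.79.

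The S100A10 and ANXA2 proteins join in a fixed proportion, so the ratio of their UMIs within the same cells, which does not depend on the library total, was followed through the data. There were 1.04 S100A10 UMIs for each ANXA2 UMI in the untreated library (interval 1.03 to 1.04) and 0.302 in the TGFB1 library (0.300 to 0.303), 3.44-fold lower. The ratio compares captured transcripts, and the capture of each gene per molecule is unknown, so its absolute size is not a stoichiometry.
In the untreated library it was 1.04 in cluster 1, 1.13 in cluster 2 and 1.03 in cluster 6, the 3 clusters that hold most untreated cells. It was 0.687 in cluster 9 and 0.428 in cluster 7. In the TGFB1 library the ratio lay between 0.206 (cluster 10) and 0.375 (cluster 8) in 8 of the 9 clusters with at least 50 cells. The exception was cluster 1, where 56 TGFB1 cells had 0.917 (interval 0.857 to 0.981). The TGFB1 cells of clusters 2 and 6, fewer than the minimum, are given after their values were seen. In cluster 2, 46 TGFB1 cells had 1.12 against 1.13 in its untreated cells. In cluster 6, 21 TGFB1 cells had 0.691 (interval 0.628 to 0.761) against 1.03 in its untreated cells. The few TGFB1 cells in these 3 mostly untreated clusters thus had ratios above those of the other TGFB1 clusters, near the untreated value in cluster 2 and below it in clusters 1 and 6.

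Clusters split almost entirely by library: cluster 0 held 5303 TGFB1 and 16 untreated cells, and cluster 1 held 56 and 3687. The clusters were formed on these genes among others, so their levels are a description. Over the 14 groups of at least 50 cells from 1 cluster and 1 library, S100A10 ran from 392 CPM (cluster 9, TGFB1) to 2463 CPM (cluster 2, untreated). The highest 3 groups, untreated clusters 2, 6 and 1, were each apart from the next by more than their counting intervals, and the fourth was TGFB1 cluster 1 at 1450 CPM. Untreated clusters 9 and 7 (815 and 813 CPM) had intervals that overlapped each other, and that of cluster 7 overlapped TGFB1 cluster 8 (787 CPM). Among these 14 groups the libraries thus overlapped in S100A10 level only where TGFB1 cells sat in cluster 1 or untreated cells in clusters 7 and 9.
S100A4 ran from 625 CPM (cluster 10, TGFB1) to 2933 CPM (cluster 6, untreated). Its lowest groups mixed the libraries: TGFB1 cluster 0 at 732 CPM and untreated cluster 7 at 730 CPM overlapped within their intervals. S100A4 differed more than S100A10 among the large TGFB1 clusters, 1712 CPM in cluster 3 against 732 CPM in cluster 0, where S100A10 stood at 725 and 479 CPM.
ANXA6 ran from 70.1 CPM (cluster 9, untreated) to 180 CPM (cluster 3, TGFB1), and the 8 highest groups were all of the TGFB1 library. ANXA6 in TGFB1 cluster 1, at 71.6 CPM, overlapped untreated clusters 1, 7 and 9. ANXA2 ranged less, from 1187 CPM (cluster 9, untreated) to 2368 CPM (cluster 4, TGFB1), with the libraries interleaved along its order.

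**Figure D2:**
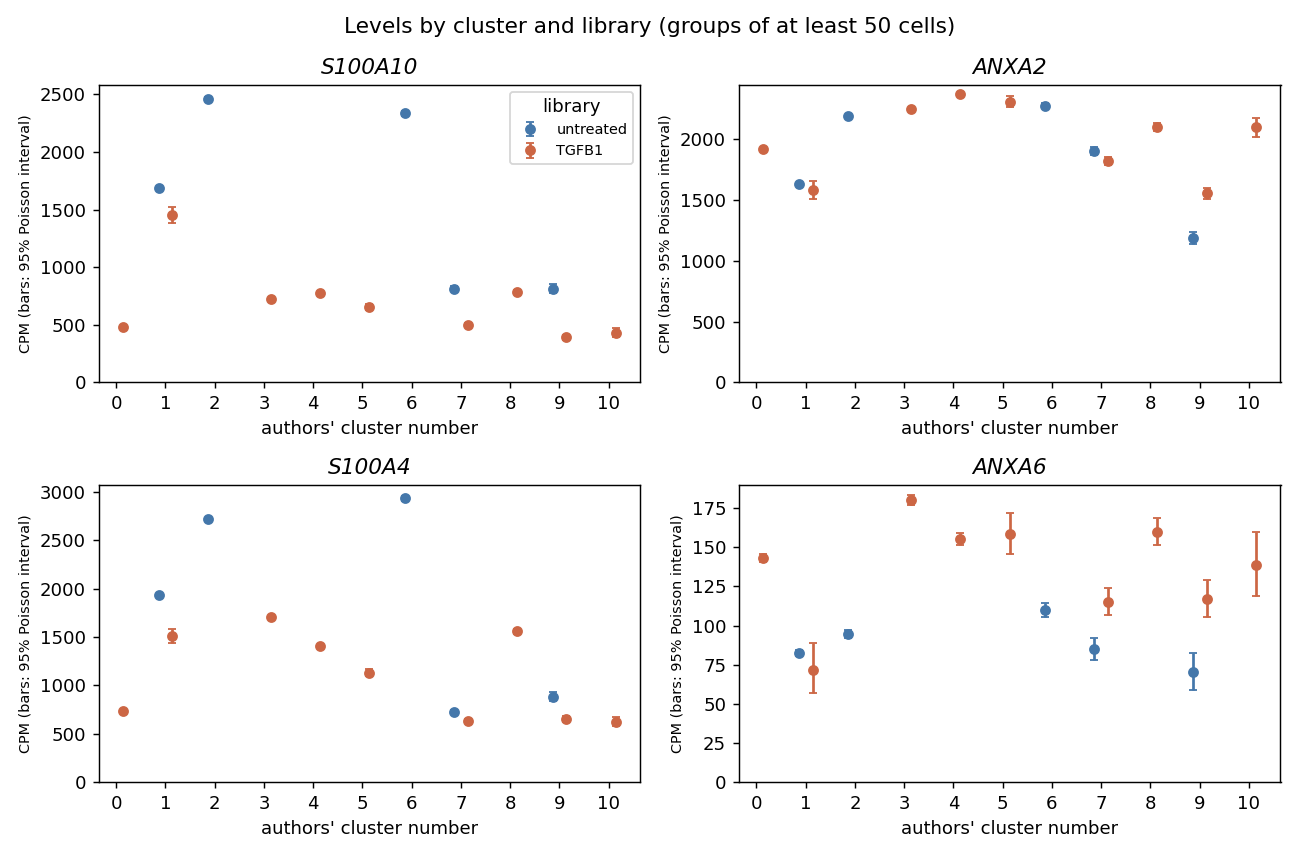
Levels of S100A10, ANXA2, S100A4 and ANXA6 in CPM (linear axes from 0, bars are 95% Poisson intervals) in each authors' cluster, untreated in blue and TGFB1 in orange, for groups of at least 50 cells. S100A10 is at 1450 CPM or above in clusters 1, 2 and 6 and at 815 CPM or below in the others, while ANXA2 shows no such gap.

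Clusters 1, 7 and 9 held at least 50 cells of both libraries, and within each the direction for S100A10 was the same. It was 1.17-fold lower with TGFB1 in cluster 1 (1690 against 1450 CPM), 1.64-fold lower in cluster 7 (813 against 495 CPM) and 2.08-fold lower in cluster 9 (815 against 392 CPM), each less than the 3.09-fold over all cells. S100A4 was 1.27-, 1.15- and 1.35-fold lower in clusters 1, 7 and 9. ANXA6 had a ratio of 1.36 in cluster 7 and 1.67 in cluster 9, but 0.866 in cluster 1, with an interval of 0.686 to 1.08 that includes no difference. ANXA2 had ratios of 0.972, 0.959 and 1.31. Cluster 1 rests on 56 TGFB1 cells and cluster 9 on 108 untreated cells.

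Because cells of the libraries differ in depth, each cell was also thinned to 7500 UMIs, which kept 7646 untreated and 9330 TGFB1 cells and left out 455 and 3225. At equal depth the median cell held 14 S100A10 UMIs in the untreated and 4 in the TGFB1 library, and 96.4% of TGFB1 cells lay below the untreated median. Among the cells kept, the lower level was thus spread over most of the TGFB1 library; the cells left out by thinning are not covered. The upper tail also moved: the 95th percentile was 36 UMIs in untreated and 12 in TGFB1 cells.
S100A4 fell from a median of 13 to 6 UMIs, with 75.6% of TGFB1 cells below the untreated median, and its distributions overlapped more than those of S100A10. S100A6 had medians of 45 and 30 UMIs, with 83.2% of TGFB1 cells below the untreated median. ANXA2 had medians of 13 and 15 UMIs and ANXA5 of 12 and 12. At this depth ANXA6 was near 1 UMI per cell, with 47.3% of untreated and 67.3% of TGFB1 cells holding at least 1 UMI (74.7% and 78.3% before thinning). For PTPRC, a leukocyte gene these cells should lack, the thinned shares were 0.157% and 0.204% (0.395% and 0.558% before thinning). S100A10 was found in 99.0% and 93.5% of thinned cells.

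**Figure D3:**
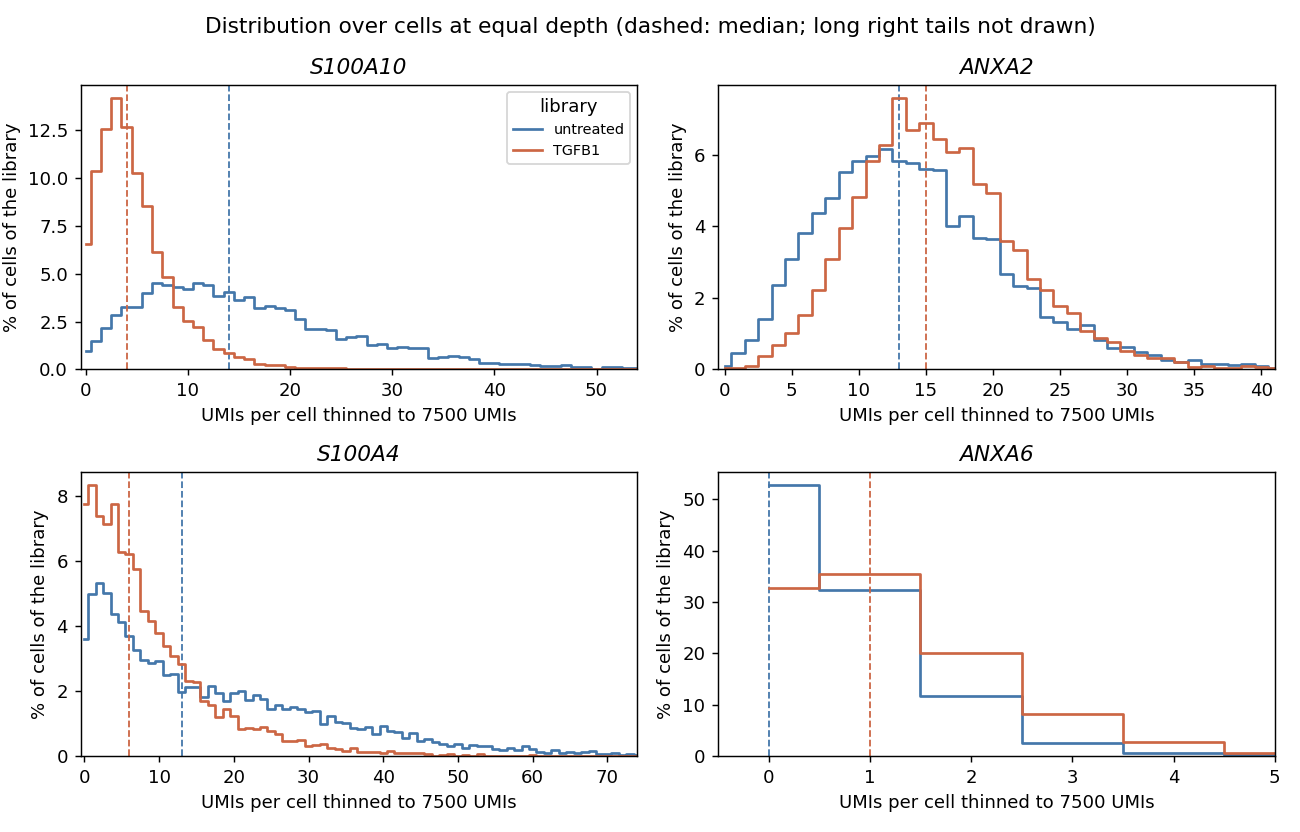
Distribution over cells of S100A10, ANXA2, S100A4 and ANXA6, in UMIs per cell thinned to 7500 UMIs (horizontal) and percent of the library's cells (vertical), for 7646 untreated (blue) and 9330 TGFB1 (orange) cells, with dashed lines at the medians. The S100A10 curves are shifted as a whole, medians 14 and 4, while the ANXA2 curves largely overlap.

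Across single cells at equal depth, 3 S100 genes had the highest correlations of the untreated library. Pearson r was 0.66 for S100A6 with S100A10, 0.64 for S100A4 with S100A10 and 0.63 for S100A4 with S100A6 over 7646 untreated cells. The values over 9330 TGFB1 cells were 0.41, 0.37 and 0.47. S100A6 with S100A11 had 0.56 in untreated cells and 0.50 in TGFB1 cells, the highest value of the TGFB1 library. The complex partners S100A10 and ANXA2 had only 0.38 and 0.24, lower than S100A4 with ANXA2 (0.44 and 0.35). ANXA6 was the least tied to the rest, with r of 0.05 to 0.16 in untreated cells, but its low counts limit any r. Cells share a library, and lower counts can lower r. Smaller values in the TGFB1 library were not limited to S100A10. S100A11 with ANXA2, neither of them lower there, had 0.37 in untreated and 0.18 in TGFB1 cells, while S100A4 with ANXA6 had 0.11 in both. What part the lower S100A10 level has in its smaller values was not tested.

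**Figure D4:**
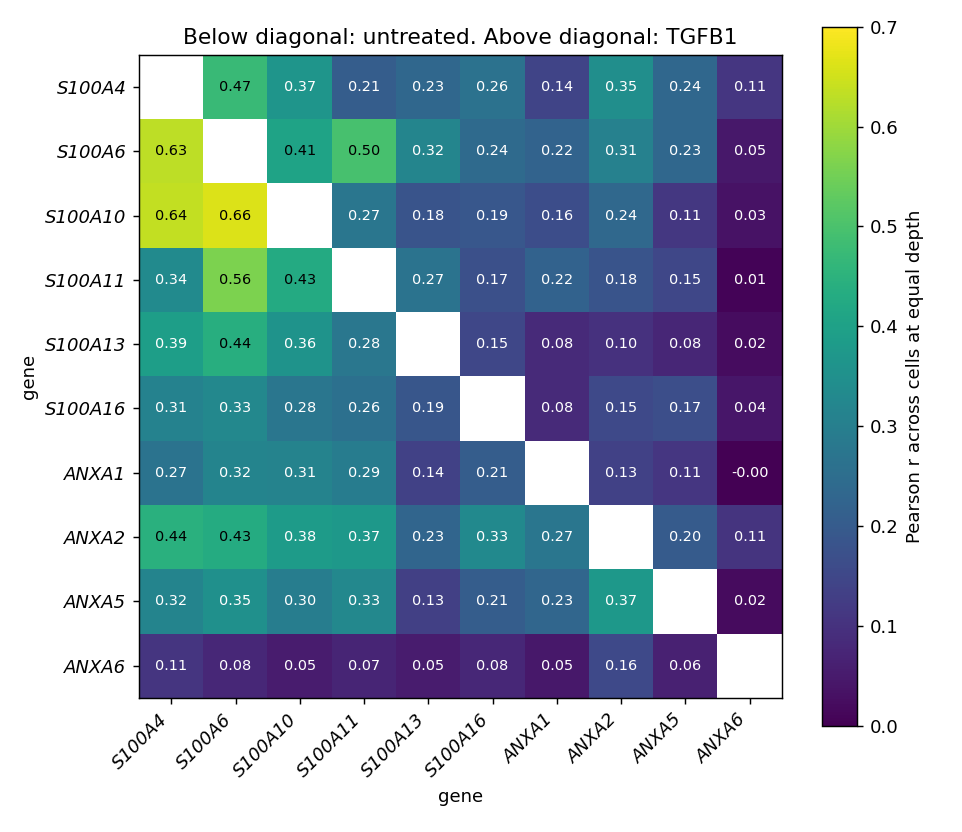
Pearson r between the 10 genes across cells thinned to 7500 UMIs, on log2 of counts per 10000 plus 1, with 7646 untreated cells below and 9330 TGFB1 cells above the diagonal. The block of S100A4, S100A6 and S100A10 holds the highest untreated values (0.63 to 0.66), and the ANXA6 row the lowest.

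Over the 14 cluster and library groups, the genes at 20 CPM or more whose log2 levels followed S100A10 most closely were PSMB8, a catalytic subunit of the immunoproteasome (r 0.98), GSDMD, the pore-forming gasdermin D (r 0.97), and CCDC115 (r 0.97). PSMB8 stood at 78.5 CPM in untreated and 29.1 CPM in TGFB1 cells, and GSDMD at 23.1 and 9.86 CPM. With only the 10 groups of at least 200 cells, PSMB8 (r 0.99) was again first, followed by PSMB9, another immunoproteasome subunit (85.5 and 18.2 CPM), and NTPCR. ANXA6 was followed most closely by the actin-monomer-recycling gene CAP1 (r 0.98, 229 and 478 CPM), the glycolytic phosphofructokinase PFKP (r 0.98, 63.5 and 174 CPM) and PHLDA2 (r 0.97, 51.8 and 125 CPM). 
The closest genes to S100A4 were PGRMC1, GNG10 and MRPL11 (r 0.96 to 0.97), none of which was 1.5-fold lower over all cells. For ANXA2 they were NDUFA7, PSMD8 and the actin-binding profilin PFN1 (r 0.94 to 0.95). S100A6 was closest to MZT2A, BLOC1S1 and ADIRF, S100A11 to NDUFA11, ELOB and CLTB, S100A13 to SKP1, DNPH1 and RPS7, and S100A16 to ARPC1A, SS18L2 and DBNL. ANXA1 was closest to SNAPIN, CZIB and SOD1, and ANXA5 to the ribosomal protein genes RPS13, RPL26 and RPS14. These lists depend on the groups used. With only the groups of at least 200 cells, none of the genes named for ANXA2 or ANXA5 stayed among their closest 3. For each of the other members some but not all stayed. Among the 10 genes, S100A10 had r of 0.91 with S100A6, 0.89 with S100A4, 0.82 with ANXA1, 0.80 with S100A13 and 0.59 with ANXA5. Its r was 0.42 with S100A16, 0.12 with S100A11, 0.10 with ANXA2 and -0.48 with ANXA6. The points share 2 libraries, so a difference between the libraries raises r for genes that differ in the same direction and lowers it for genes that differ in opposite directions.

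Along the S100 stretch of chromosome 1, with 200000 bases to either side (a distance chosen after values were seen), 75 genes were in the matrix and 13 were at 5 CPM or more. Of the 8 S100 genes among them, 4 were lower by 1.5-fold: S100A10, S100A4, S100A3 (12.4 to 4.05 CPM) and S100A2 (13.0 to 8.40 CPM, a call lost under TMM and median-of-ratios scaling). Over all measured genes 14.2% were lower. None of the 5 other genes, THEM4, CHTOP, SNAPIN, ILF2 and INTS3, was past 1.5-fold in either direction. SNAPIN, at 39.5 and 26.9 CPM, came nearest with a log2 ratio of -0.55. Of the 4 lower genes, S100A4, S100A3 and S100A2 follow each other along the chromosome. Before S100A4 come S100A6, at a log2 ratio of -0.53, and S100A5, at -1.43 but below 5 CPM. S100A10 lies apart from these genes: it and its neighbour S100A11 had log2 ratios of -1.63 and 0.09. S100A16 at 0.08 lay between S100A2 and S100A13. S100A3 lies inside the S100A4 gene on the same strand over 2044 bases, so reads of the more abundant S100A4 could be counted for S100A3, and its value is uncertain.

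**Figure D5:**
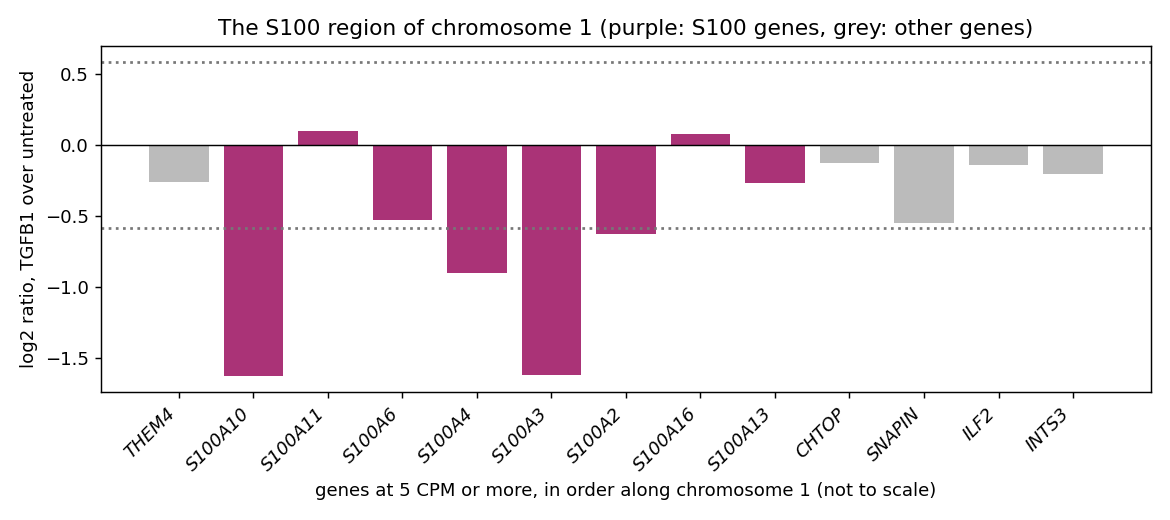
Log2 ratio of TGFB1 over untreated for the 13 genes at 5 CPM or more along the S100 stretch, in chromosome order and not to scale, S100 genes in purple and others in grey, with dotted lines at 1.5-fold. S100A10 (-1.63), S100A4 (-0.91), S100A3 and S100A2 pass the lower line, and S100A11 next to S100A10 is at 0.09.

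Of the rest of both families, 2 S100 genes and 4 annexins were measured at 5 CPM or more. S100A3 and S100A2 were both lower, S100A2 by 1.55-fold only and within 1.5-fold under TMM and median-of-ratios scaling (other ways to scale the libraries). ANXA3 (18.6 to 7.88 CPM), ANXA7 (116 to 72.2 CPM) and ANXA11 (166 to 98.9 CPM) were lower, and ANXA4 (140 to 116 CPM) was within 1.5-fold. By the same rule 14.2% of all measured genes were lower. Under TMM scaling 2 of these annexins, and under median-of-ratios scaling 1, stayed past 1.5-fold. The inflammatory S100A8 and S100A9 had 0 UMIs in both libraries. The exact Poisson interval of 0 UMIs reaches up to 0.0218 CPM in untreated and 0.0177 CPM in TGFB1 cells.

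Transcripts of the proteins that S100 and annexin proteins bind differed in both directions, and no protein was measured. Of 17 measured genes of intracellular S100 targets, 4 were higher and 1 lower (median log2 ratio 0.03). Over all measured genes 8.45% were higher and 14.2% lower, the shares to set beside the counts of this list and the lists below. The higher ones were cytoskeletal: TPM1, a tropomyosin, from 1457 to 7409 CPM, MYH9, the non-muscle myosin that S100A4 binds, from 242 to 544 CPM, and the tropomyosins TPM4 (921 to 1552 CPM) and TPM2. The lower one was CACYBP, the S100A6 partner, from 89.9 to 49.7 CPM.
In the list of receptors and extracellular partners, 4 of 10 measured genes were lower. CACYBP, already counted above as an intracellular target, is also on this list and is 1 of the 4. PLAT, the tissue plasminogen activator that binds the S100A10 and ANXA2 complex, fell from 41.6 to 7.16 CPM, and PLAU, the urokinase activator, from 20.3 to 8.22 CPM. CD36, a scavenger receptor, fell from 9.17 to 3.18 CPM. 
Of 18 measured genes of membrane repair and annexin partners, 1 was higher and 2 lower (median -0.28). CAV1, the caveola coat protein, fell from 977 to 284 CPM, while CAVIN1, its partner in caveolae, rose from 504 to 897 CPM. AHNAK2, a giant protein related to the S100A10 and ANXA2 partner AHNAK, fell from 42.1 to 23.6 CPM, and AHNAK itself stood at 426 and 337 CPM, within 1.5-fold. CAPN1, a calcium-activated protease, stood at 34.6 and 25.4 CPM.
Among 27 measured genes of other EF-hand proteins, 4 were higher and 1, CETN3, lower (median 0.02). The higher ones were the actin crosslinkers ACTN1 (289 to 788 CPM) and ACTN4 (155 to 240 CPM), the matrix protein SPARC (3393 to 5767 CPM) and the calmodulin gene CALM2 (888 to 1400 CPM). Under TMM or median-of-ratios scaling 8 of the 27 were higher and 0 lower. The shares of all measured genes also change with the scaling and are given in the next paragraph.

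Cycling markers, at 127.7 and 37.9 CPM in sum, were lower beside the lower S100A10 and S100A4. Without the cells that held an MKI67 or TOP2A UMI, which left 6690 untreated and 11562 TGFB1 cells, the log2 ratio was -1.60 for S100A10, -0.85 for S100A4 and 0.82 for ANXA6, close to the values over all cells. Other scalings moved every gene by 0.15 (TMM) or 0.19 (median of ratios) on the log2 scale, after which 9.99% and 9.24% of measured genes were lower and 11.7% and 12.8% higher. S100A10 and S100A4 were lower and ANXA6 higher by at least 1.5-fold under both.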

How the data were processed

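The matrix deposited by the authors gives unnormalized UMI counts for each gene in each cell, and the table deposited by the authors gives for each cell its UMI and gene counts, its percent of mitochondrial UMIs (highest 4.998), its library and its cluster. Cell Ranger 9.0.1, Seurat and GRCh38 are named in the submitters' processing notes, with no roles stated. Which gene annotation was used is not stated there. Cell sums equalled the table's totals in all 20656 cells, and the clusters were those at resolution 0.4.

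Counts were summed by library or by cluster and library and divided by the total (CPM). Ratios carry exact conditional binomial (Clopper-Pearson) intervals, sums exact Poisson and shares of cells exact binomial ones. The interval of a fold between 2 ratios is log-normal. Thinning drew 7500 UMIs per cell without replacement. Scripts used Python 3.11.15, numpy 2.4.6, scipy 1.17.1 and pandas 2.3.3, and edgeR 4.0.16 for TMM factors only. The calculations were tested on simulated data. No doublet caller was run and no further cell filter was applied.

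The members and lists were chosen with earlier results of these data known. Besides the members, the text names the other family genes at 5 CPM or more, up to 4 genes with the largest log2 ratio of each list and the 3 genes most like each member. CACYBP, TPM2, CETN3, AHNAK, DCN, LUM, PDGFRA, NT5E, PSMB9, NTPCR, S100A8, S100A9 and the chromosome 1 neighbours, and in the closing section ATP2B1, ITPR3, ORAI1, STIM1 and CACNA1C, were in part named after their values were seen, as were the motifs. Part of the result for the list of receptors and extracellular partners is not reported here. S100A7L2 was not found by name. Pseudogene copies of ANXA2 and S100A11 are not rows of the matrix, so reads they share with those genes could not be assessed.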

Additional observations from a re-analysis of the deposited data

How the results depend on the processing

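With 1 library per group nothing here measures the spread between cultures, and counting intervals are far narrower than that spread can be. Over 9 alternatives of scaling, cell weighting, depth and cell choice, S100A10 had log2 ratios of -1.74 to -1.44, S100A4 of -1.06 to -0.72 and ANXA6 of 0.76 to 0.98. The sign held over these 9 for every member except ANXA5 (-0.11 to 0.11). At a fold of 2, 1 member was lower and 0 were higher, beside 661 lower and 395 higher of all 10928 measured genes. Equal weight per cell gave 3 members lower, S100A6 (-0.60) being the third. The S100A10 to ANXA2 ratio was 3.76-fold lower with equal weight per cell, 3.66-fold thinned to 7500 UMIs, 3.47-fold without cells holding an MKI67 or TOP2A UMI and 3.52-fold without clusters 7, 9 and 10. Within cluster 1 (56 TGFB1 cells) the ANXA6 log2 ratio was -0.21, with an interval that includes no difference. The cause was not tested for any of these. The members' median was -0.02 under TMM and 0.01 under median-of-ratios scaling. At a minimum of 20 CPM none of the other S100 genes was measured, so they have no median there. No paired analysis was possible because each group is 1 library.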

Other observations

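The proteins that bring calcium into the cell or remove it, on which S100 proteins and annexins depend, were described from a list of 28 genes. Of the 25 measured, 1 was higher and 8 lower, with a median log2 ratio of 0.02 against -0.10 over all measured genes, of which 8.45% were higher and 14.2% lower. The lower ones included the mechanically gated channel PIEZO2 (9.45 to 3.97 CPM), the store-operated channel subunit ORAI3 (23.6 to 11.0 CPM), the sodium-calcium exchanger SLC8A1 (126 to 60.7 CPM) and the plasma membrane calcium pump ATP2B4 (169 to 85.0 CPM). A second such pump, ATP2B1, fell from 215 to 118 CPM, and ORAI1, STIM1 and ITPR3 were the other lower genes. CACNA1C, a voltage-gated calcium channel subunit, was the higher one, at 241 and 365 CPM. Under TMM scaling 2 were higher and 7 lower, and under median-of-ratios scaling 3 and 6.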
